A study of Mus musculus with 4 samples.

Results

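The 4 Id genes, Id1, Id2, Id3 and Id4, were examined in the molar tooth mesenchyme of mouse embryos at embryonic day 13.5. They were found by their gene symbols in the deposited expression tables, which list 22072 symbols, and all 4 were present. Mesenchyme under the upper and the lower molar was cut out of frozen sections by laser capture and its RNA was sequenced, with 1 library for each combination of genotype and molar. The mutant carried 2 floxed Bmp4 alleles and Wnt1Cre, a Cre transgene active in the neural crest, from which tooth mesenchyme arises (Bmp4f/f;Wnt1Cre). The control carried 1 floxed and 1 unmodified allele (Bmp4f/+), and its label names no Wnt1Cre, so that an effect of the transgene and the loss of Bmp4 cannot be told apart. Both genotypes were on a mixed background. The series description speaks of 3 pairs of mutant and control samples that were pooled for RNA, so each library is a pool and no library has a replicate of its own group.

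Id proteins (inhibitors of DNA binding) are small nuclear proteins with a helix-loop-helix domain but without the basic region that binds DNA. They pair with E proteins, the widely expressed basic helix-loop-helix (bHLH) factors, and keep them from pairing with tissue-specific bHLH factors. Id genes are among the best known direct targets of BMP signalling, in which a BMP ligand activates receptor-regulated Smad proteins that bind DNA, and BMP4 is a main BMP of the early tooth mesenchyme.

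Promoter sequence is shown for the members held by the RefSeq promoter table of GRCm38.p6, which matched 3 of the 4 genes. The display was prompted by lower values of all 4 Id genes in the mutant in both molars. The same held for 32.4% of the 10502 genes tested, and of the 4 only Id3 passed the test described below. Each stretch is the 250 bases before the annotated start, 5′ to 3′ on the strand of the gene. Capitals mark GGCGCC, a palindrome bound by BMP-activated Smads, and CAGAC or its reverse complement GTCTG, the core of the Smad binding element, searched on both strands. The windows are chr12:25096093-25096342 (minus strand) for Id2, chr4:136143572-136143821 (plus strand) for Id3 and chr13:48260866-48261115 (plus strand) for Id4.
Id2: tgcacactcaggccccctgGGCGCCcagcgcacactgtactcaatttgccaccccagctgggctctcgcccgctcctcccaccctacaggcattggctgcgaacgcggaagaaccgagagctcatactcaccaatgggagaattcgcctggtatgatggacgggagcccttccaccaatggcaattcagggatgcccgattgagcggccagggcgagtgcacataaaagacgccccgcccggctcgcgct
Id3: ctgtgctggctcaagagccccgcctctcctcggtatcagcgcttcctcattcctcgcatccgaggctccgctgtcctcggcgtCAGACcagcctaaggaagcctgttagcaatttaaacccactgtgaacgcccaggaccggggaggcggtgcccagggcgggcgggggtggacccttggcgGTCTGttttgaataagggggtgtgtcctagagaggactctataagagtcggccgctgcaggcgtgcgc
Id4: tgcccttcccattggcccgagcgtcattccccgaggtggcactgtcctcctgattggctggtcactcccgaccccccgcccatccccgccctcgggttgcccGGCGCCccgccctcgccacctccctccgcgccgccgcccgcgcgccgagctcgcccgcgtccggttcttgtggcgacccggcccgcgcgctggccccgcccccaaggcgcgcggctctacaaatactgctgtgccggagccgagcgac
The window of Id3 held 2 matches to CAGAC, which begin 167 and 68 bases before the start, and none to GGCGCC. The windows of Id2 and Id4 held 1 match each to GGCGCC, beginning 231 and 148 bases before the start, and none to the other motif. Of 32851 promoter windows of the same length, 9.59% held GGCGCC and 42.2% held CAGAC. The NF-Y motif CCAAT was matched 3 times in Id2, 0 times in Id3 and 2 times in Id4, against 33.8% of windows with a match. CANNTG, the E-box to which bHLH dimers bind, was matched 1 time in Id2 and 0 times in Id3 and Id4, against 66.2% of windows. No match overlapped one of another motif. GC content was 62.8% in Id2, 62.8% in Id3 and 75.6% in Id4, against a median of 52.4% over all windows. A match is a run of letters and not a measured binding site.

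The 4 libraries held between 4820000 and 5550000 approximate reads on annotated transcripts. Expression is given in the deposited unit FPKM, the fragments per kilobase of a transcript divided by library size. All log2 differences were taken after adding 1 FPKM to each value, so they understate changes of genes with low expression. Genes averaging 1 FPKM or more were tested, which kept 10502 genes and all 4 Id genes. The targeted gene Bmp4 had 4.75 FPKM in upper and 4.90 FPKM in lower molars of mutants, against 24.8 and 27.2 FPKM in those of controls. Its transcript overlaps that of Gm15217 by 86 bases, and the sources used here do not say which part of the gene Cre removes. The 7 markers of tooth mesenchyme lay at 11.7 FPKM or more in every library. Msx1 lay between 98.4 and 150 FPKM, Prrx1 between 132 and 144 FPKM and Pax9 between 57.4 and 108 FPKM. Dlx2 was the lowest of the 7, between 11.7 and 28.8 FPKM. In mutants of both molars 3 of the 7 were higher and 3 lower (27.2% and 32.4% of all tested genes).

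Each Id gene was represented by 1 RefSeq transcript that overlaps no other listed gene. On mm9, Id1 lies on chromosome 2 (152562010 to 152563146, transcript of 911 bases), Id2 on chromosome 12 (25778664 to 25780957, 1272 bases), Id3 on chromosome 4 (135699737 to 135701307, 953 bases) and Id4 on chromosome 13 (48356796 to 48359405, 1660 bases). The order of FPKM was Id3, Id2, Id1, Id4 in each of the 4 libraries, and within every library the 95% counting intervals of neighbours in that order were separate. Across libraries Id3 ranged from 21.4 to 81.2 FPKM, Id2 from 7.44 to 13.5 FPKM, Id1 from 1.99 to 5.31 FPKM and Id4 from 0.666 to 2.82 FPKM. The ranges of Id1 and Id4 overlapped and the others did not. By mean FPKM Id3 ranked 386 of 22072 gene symbols, Id2 2653, Id1 6086 and Id4 9344.

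The question of the study's main comparison is which genes of the molar mesenchyme depend on mesenchymal Bmp4. All 4 Id genes had a lower FPKM in the mutant than in the control library of the same molar, in both molars. Among all tested genes 32.4% were lower in both molars. Since these are bulk samples, fewer cells of a type and less RNA per cell cannot be told apart. In the upper molar Id3 fell to 42.2 FPKM in the mutant, against 81.2 FPKM in the control, and in the lower molar to 21.4 FPKM in the mutant, against 60.1 FPKM in the control. Summed over the 4 genes, Id expression was 57.3 FPKM in upper and 31.5 FPKM in lower molars of mutants, against 103 and 78.0 FPKM in those of controls, which is 55.8% and 40.4% of the control sum.

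**Figure D1:**
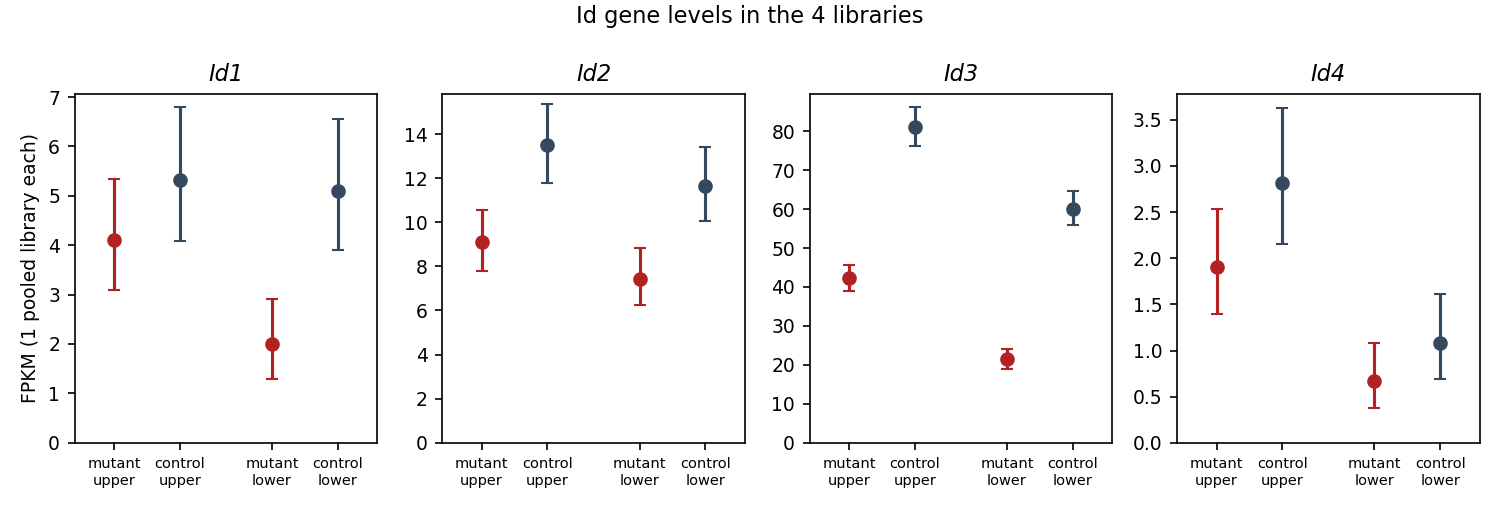
FPKM (vertical axis, linear from 0, with a scale of its own for each gene) of the 4 Id genes in the 4 libraries, with mutant libraries in red left of the control library of the same molar in dark blue. Points are single pooled libraries and bars are exact 95% Poisson intervals of the approximate reads, which cover counting error only. In each panel both mutant points lie below the control point of the same molar, by most for Id3.

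Id3, the most abundant of the 4, was read with about 598 and 288 reads in mutants (upper and lower molar), against about 1013 and 747 reads in the matching controls. Both mutant libraries lay below both control libraries. The mutant level was 52.1% of control in the upper molar (95% counting interval 47.0 to 57.6%) and 35.6% in the lower molar (31.0 to 40.9%). Over both molars Id3 fell by 1.19 ± 0.14 (log2, SE, limma adjusted p = 0.027, lower in 2 of 2 molars). With 1 pooled library per genotype and molar, the p-value rests on how far the molars disagree, in Id3 and over all tested genes. It does not rest on the spread between embryos. Upper and lower molars may share embryos, which the labels leave unstated, and would then not be independent samples. Id3 was the only 1 of the 4 Id genes that limma called at an adjusted p of 0.05, and 0.457% of all tested genes were called lower in the mutant. This call was lost after rescaling by median ratios (adjusted p = 0.055), without the intensity trend (0.055), with the molar term dropped (0.44), without a filter on low values (0.60) and when any of the 4 libraries was left out (between 0.080 and 0.98), and its direction was the same in each of these.

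Id2 had 9.10 FPKM in upper and 7.44 FPKM in lower molars of mutants, against 13.5 and 11.6 FPKM in those of controls. Both mutant libraries lay below both control libraries. The mutant level was 67.4% of control in the upper molar (95% counting interval 54.9 to 82.6%) and 63.9% in the lower molar (50.8 to 80.0%), so the difference had nearly the same size in both jaws. The difference over both molars was -0.55 ± 0.11 (log2, SE) and missed the test threshold (limma adjusted p = 0.10). When genes averaging less than 5 FPKM were left out, limma called Id2 lower (adjusted p = 0.013), with the difference unchanged at -0.55. No other setting called it. The limma adjusted p was 0.11 after rescaling by median ratios, 0.15 without the intensity trend, 0.42 with the molar term dropped and 0.60 without a filter.

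Id1, the member most often used as a readout of BMP activity, had 4.10 FPKM in upper and 1.99 FPKM in lower molars of mutants, against 5.31 and 5.10 FPKM in those of controls. Both mutant libraries lay below both control libraries, with the mutant lower molar the lowest. These values rest on about 55 and 26 reads in the mutant and about 63 and 61 reads in the control. The mutant level was 77.1% of control in the upper molar (95% counting interval 52.6 to 112%), a difference not detectable at this depth, and 39.0% in the lower molar (23.9 to 63.4%). Over both molars the difference was -0.67 ± 0.18 (log2, SE) and missed the test threshold (limma adjusted p = 0.20).

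Id4, the least abundant member, had 1.91 FPKM in upper and 0.666 FPKM in lower molars of mutants, against 2.82 and 1.09 FPKM in those of controls. The genotypes overlapped, since the mutant upper molar lay above the control lower molar. With about 47 and 16 reads in the mutant and about 61 and 24 reads in the control, the mutant level was 67.6% of control in the upper molar (95% counting interval 45.4 to 101%) and 61.3% in the lower molar (30.6 to 121%). Neither difference was detectable at this depth. Over both molars it was -0.36 ± 0.15 (log2, SE, limma adjusted p = 0.36). Fits with 1 library left out had no term for the molar and so mixed genotype with molar. In these fits the sign turned, to 0.041 without the mutant lower and 0.076 without the control upper library. Within a molar the difference of Id4 was -0.40 in upper and -0.32 in lower molars (log2).

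Complete separation, with both mutant libraries below both control libraries, was thus seen for 3 of the 4 Id genes, against 23.1% of all tested genes. An unadjusted limma p under 0.05 with a lower value in the mutant was reached by 4 of 4 Id genes and by 6.51% of all tested genes. The median difference of the 4 genes was -0.46 for upper and -0.81 for lower molars (log2), where the median over all tested genes was 0.015 and -0.047. In the upper molar no Id gene passed a 2-fold decrease, which 0.59% of tested genes did. In the lower molar Id1 and Id3 passed it, against 0.619% of tested genes.

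**Figure D2:**
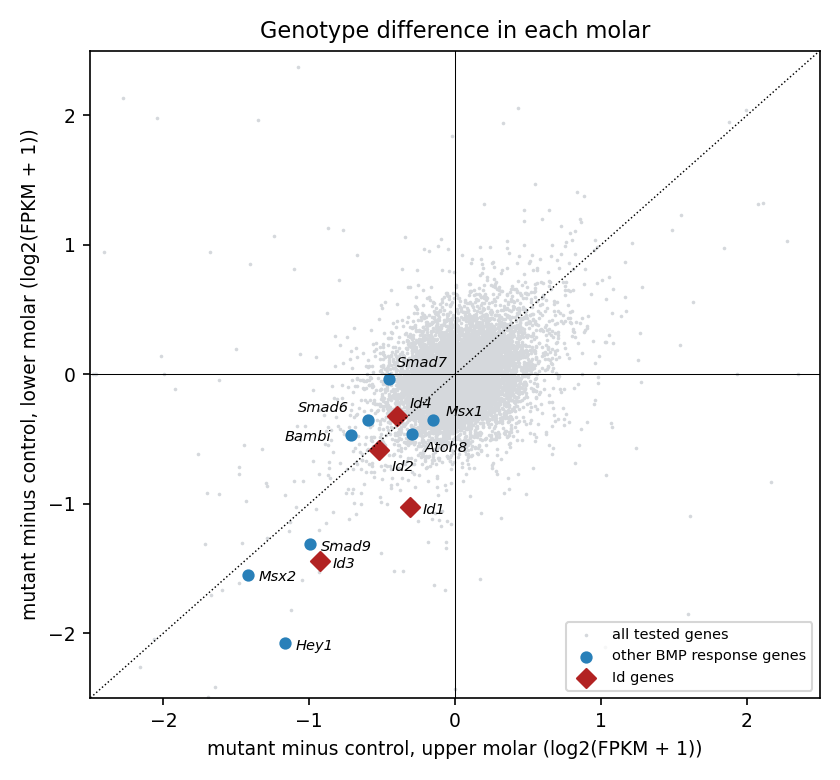
Difference of mutant minus control on the log2(FPKM + 1) scale in the upper molar (horizontal axis) and in the lower molar (vertical axis) for all tested genes (grey), other BMP response genes (blue) and the Id genes (red diamonds), 1 library per genotype in each molar. The dotted line marks equal differences, and 31 genes lie beyond the axes, which end at 2.5 in either direction. All 4 Id genes lie in the lower left field, Id3 and Id1 below the dotted line and Id2 and Id4 close to it.

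The genotype differences of the 2 jaws were set side by side. The genotype difference in the lower molar minus that in the upper molar was -0.72 for Id1, -0.52 for Id3, -0.06 for Id2 and 0.07 for Id4 (log2). With 1 library per genotype in each molar this difference was not tested. On this scale, with 1 FPKM added, the difference was more negative in the lower molar for 3 of 4 Id genes and for 60.3% of all tested genes. As a percentage of the control FPKM, with nothing added, the mutant level was lower in the lower molar for all 4. For Id4 it was 61.3% in lower and 67.6% in upper molars. The share of all tested genes on this second scale is not given here. For Id3 the 95% counting intervals of the mutant level as a percentage of control did not overlap between the molars. For Id1, Id2 and Id4 they did. Bmp4 itself remained at 19.2% of its control level in upper and 18.0% in lower molars.

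The share of each member in the summed Id level was compared as well. Id3 made up 73.7% of the summed Id FPKM in upper and 68.0% in lower molars of mutants, against 79.0% and 77.1% in those of controls. Id2 made up 15.9% and 23.6% in mutants, against 13.1% and 14.9% in controls. The FPKM ratio of Id3 to Id2 was 4.64 and 2.88 in mutants (upper and lower molar), against 6.01 and 5.16 in the matching controls. Both mutant ratios lay below both control ratios, and with 1 library per group they carry no test.

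The second factor of the design was the jaw. The levels of all 4 Id genes were lower in the lower than in the upper molar, in mutants and in controls, which held for 35% of all tested genes. Id4 had 0.666 FPKM in the lower and 1.91 FPKM in the upper molar of mutants, and 1.09 FPKM in the lower and 2.82 FPKM in the upper molar of controls. Its lower molar level was 34.9% of the upper in mutants (95% counting interval 19.0 to 64.5%) and 38.5% in controls (23.6 to 64.3%). Id4 was the member with the largest of these 4 differences over both genotypes, -0.84 ± 0.15 (log2, SE, limma adjusted p = 0.078). limma called it without transcripts under 0.3 kb (adjusted p = 0.027) and without an intensity trend (0.048).

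The other members differed less evenly. Id3 in the lower molar was at 50.7% of its upper molar level in mutants (95% counting interval 44.0 to 58.6%) and at 74.1% in controls (67.3 to 81.5%), with a difference over both genotypes of -0.69 ± 0.14 (log2, SE, limma adjusted p = 0.13). Id1 in the lower molar was at 48.6% of its upper molar level in mutants (30.0 to 80.9%) and at 96.1% in controls (67.3 to 141%), where no difference was detectable at this depth. For Id2 both counting intervals included equality, at 81.8% in mutants (64.5 to 103%) and 86.3% in controls (70.7 to 105%). limma called 0 of the 4 Id genes for the molar, against 0.333% of all tested genes called lower in the lower molar, and 2 of them, Id3 and Id4, had an unadjusted p under 0.05 with a lower value in the lower molar, against 6.12% of tested genes. Without the mutant lower library the molar difference turned to 0.11 for Id1, 0.064 for Id2 and 0.036 for Id3, and without the control upper library to 0.033 for Id2, in fits of 3 libraries with no term for genotype.

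Genes of the E proteins, the main binding partners of Id proteins, were compared next. Tcf3 (encoding E2A), Tcf4 (E2-2) and Tcf12 (HEB) together had 102 FPKM in upper and 102 FPKM in lower molars of mutants, against 92.7 and 98.9 FPKM in those of controls. limma called 0 of these 3 genes in either direction (0.8% of all tested genes), and 1 of them, Tcf4, had an unadjusted p under 0.05 (13.2% of tested genes). Tcf4 had 20.5 and 31.1 FPKM in mutants (upper and lower molar), against 15.3 and 21.6 FPKM in the matching controls (difference 0.45 ± 0.11, log2, SE, limma adjusted p = 0.16). Tcf12 lay between 40.0 and 46.5 FPKM and Tcf3 between 31.2 and 34.9 FPKM. Summed Id FPKM divided by summed E protein FPKM was 0.563 in upper and 0.308 in lower molars of mutants, against 1.11 and 0.788 in those of controls. Both mutant ratios lay below both control ratios, and these are ratios of mRNA levels per length, not of proteins.

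**Figure D3:**
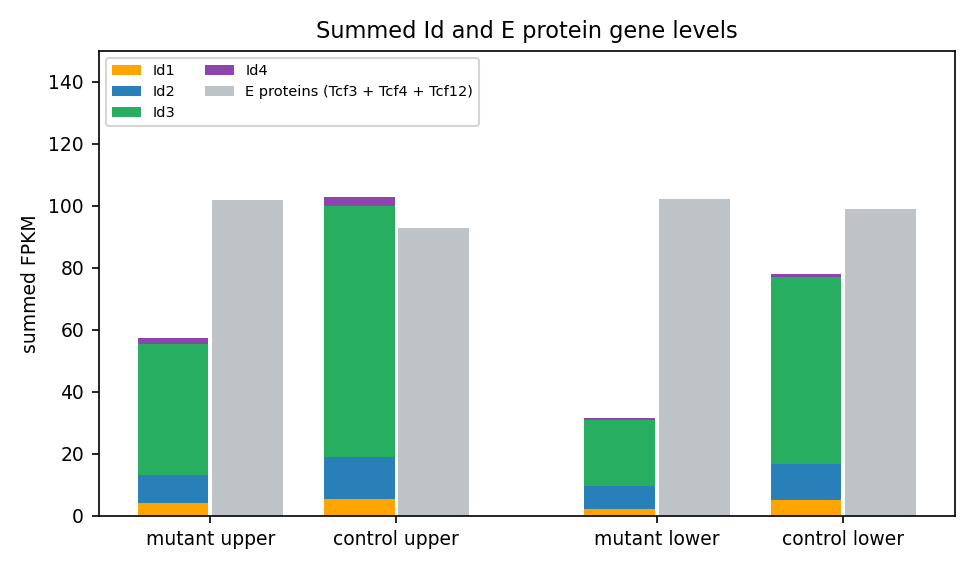
Summed FPKM (vertical axis, from 0) of the 4 Id genes, stacked by gene, and of the 3 E protein genes (grey), in 1 library per bar pair, with each mutant library left of the control library of the same molar. The Id stack reaches 57.3 and 31.5 FPKM in upper and lower mutant molars, against 103 and 78.0 FPKM in control molars, while the E protein bars lie between 92.7 and 102 FPKM.

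Tissue-specific bHLH factors pair with E proteins and include the regulators of mesenchyme. Of 8 such genes listed for mesenchyme, 3 passed the filter and limma called 0 of them (0.8% of all tested genes). Of the 3, Twist2 alone had an unadjusted p under 0.05 (limma unadjusted p = 0.0496), as had 13.2% of tested genes. Twist1, a bHLH factor of cranial mesenchyme, had 20.6 and 36.2 FPKM in mutants (upper and lower molar), against 19.3 and 26.2 FPKM in the matching controls. Twist2 had 6.88 and 6.82 FPKM in the mutant, against 4.73 and 6.13 FPKM in the control. Both were higher in the mutant in each molar, and neither passed the test (limma adjusted p = 0.42 for Twist1 and 0.38 for Twist2). Scx, a bHLH factor of tendon progenitors, had 3.97 and 0.722 FPKM in mutants (upper and lower molar), against 2.13 and 1.64 FPKM in the matching controls, so its difference had opposite signs in the 2 molars. It lies within the span of Bop1, and its reads cannot be told apart from those of that gene where the transcripts overlap. The others were Hand1, listed at 0 in all 4 libraries, and Hand2, Tcf15, Msc and Tcf21, each below 1 FPKM in all 4. Of 14 bHLH genes of muscle, neural and blood lineages, 12 stayed below 1 FPKM in every library, 6 of them listed at 0 throughout, and Tal1, a blood and endothelial factor, was the 1 that passed the filter, at 1.27 and 0.952 FPKM in the mutant and 0.907 and 0.951 FPKM in the control.

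Genes that act on Id proteins or with them were compared in the same way. Usp1, a deubiquitinase that stabilises ID proteins in human cells, had 15.2 and 12.4 FPKM in mutants (upper and lower molar), against 13.6 and 16.2 FPKM in the matching controls. Fzr1, an activator of the anaphase promoting complex, had 10.6 and 7.80 FPKM in the mutant and 9.89 and 9.56 FPKM in the control. The retinoblastoma family, of which RB binds Id2, differed by at most 0.23 in either molar (log2), with Rb1 between 1.44 and 1.70 FPKM, Rbl1 between 2.81 and 3.47 FPKM and Rbl2 between 4.79 and 5.40 FPKM. Rb1 spans Lpar6, and Rbl2 overlaps Aktip. limma called 0 of these 5 genes (0.8% of all tested genes), with 0 at an unadjusted p under 0.05 (13.2% of tested genes). Of the cyclin-dependent kinase inhibitors that E proteins can activate, Cdkn1a had 0.843 and 0.727 FPKM in the mutant and 1.15 and 0.920 FPKM in the control and did not pass the filter, and Cdkn2a and Cdkn2b were listed at 0 in all 4 libraries.

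**Figure D4:**
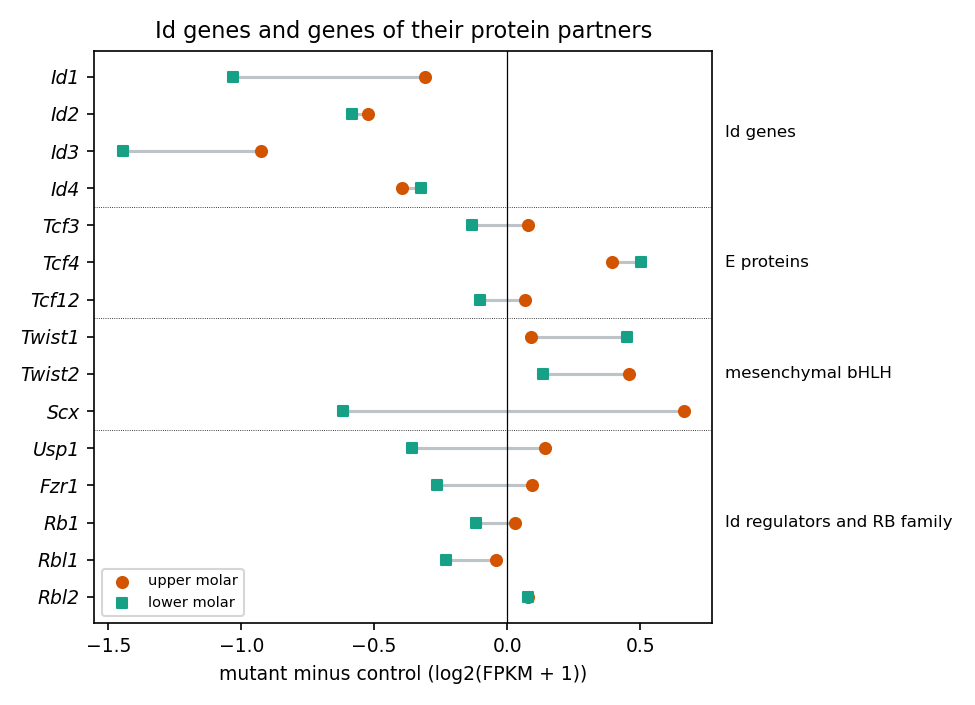
Difference of mutant minus control on the log2(FPKM + 1) scale (horizontal axis) in the upper molar (orange circles) and in the lower molar (green squares) for the tested Id genes, E protein genes, mesenchymal bHLH genes and genes of Id regulators and the RB family, 1 library per genotype in each molar. Both points of every Id gene lie left of 0, both points of Tcf4, Twist1, Twist2 and Rbl2 lie right of it, and Rbl1 is the only other gene with both points on the left.

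Other genes known to respond to BMP signals were set beside the Id genes. Of 12 such genes, 8 passed the filter, all 8 had lower values in mutants of both molars, and limma called 3 lower, Hey1, Msx2 and Smad9. Of all tested genes, 32.4% were lower in both molars and 0.457% were called lower. These genes were listed as known BMP responders with earlier results of these libraries known, so their direction is not independent evidence. The median difference of the 8 was -0.65 for upper and -0.46 for lower molars (log2). Msx2, a homeobox gene of tooth and skull mesenchyme, had 0.783 and 0.399 FPKM in mutants (upper and lower molar), against 3.77 and 3.10 FPKM in the matching controls (difference -1.49 ± 0.14, log2, SE, limma adjusted p = 0.015). Smad9, a receptor-regulated Smad, had 2.42 and 1.15 FPKM in mutants, against 5.80 and 4.35 FPKM in controls. Hey1, a transcriptional repressor downstream of Notch and BMP, had 9.68 and 3.53 FPKM in mutants (upper and lower molar), against 23.0 and 18.2 FPKM in the matching controls. Bambi, a decoy receptor that dampens BMP signals, had 0.692 and 0.802 FPKM in the mutant, against 1.77 and 1.50 FPKM in the control, and missed the test threshold (limma adjusted p = 0.21). The other tested genes of the list were Msx1, Smad6, Smad7 and Atoh8, none of them called. Msx2 and Smad9 were not called when any 1 library was left out, and Hey1 was called without the mutant upper library alone (limma adjusted p = 0.030). Hey1 and Smad9 were also not called after rescaling (0.063 and 0.055), and Hey1 without the intensity trend (0.055). None of the 3 was called without a filter (0.60 each) or with the molar term dropped (between 0.15 and 0.42). The genes below the filter were Nog, Grem1, Gata2 and Gata3. Noggin (Nog), a secreted BMP antagonist, had 0.040 and 0.042 FPKM in the mutant, against 0.987 and 0.655 FPKM in the control, with 25 reads or fewer in any library.

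Ligands, receptors and Smads upstream of the Id genes went both ways. Of 14 listed genes other than Bmp4, 12 passed the filter, 4 were higher in mutants of both molars (27.2% of all tested genes), 4 were lower in mutants of both molars (32.4% of all tested genes), and limma called 1, Bmp3, lower (0.457% of tested genes). Its limma adjusted p was 0.049, and it was 0.051 with a pseudocount of 0.1, 0.071 without the intensity trend, 0.083 after rescaling, 0.45 with the molar term dropped, 0.60 without a filter and between 0.17 and 0.98 with 1 library left out. Bmp3, a member of the BMP family that antagonises other BMPs, had 2.82 and 1.47 FPKM in mutants (upper and lower molar), against 5.17 and 3.93 FPKM in the matching controls. Bmp7 had 2.23 and 1.42 FPKM in the mutant and 1.06 and 1.15 FPKM in the control (limma adjusted p = 0.38). Bmp2 had 0.636 and 2.41 FPKM in mutants (upper and lower molar), against 0.598 and 1.30 FPKM in controls (limma adjusted p = 0.56). Bmpr2, the type II BMP receptor, had 24.8 and 19.2 FPKM in the mutant, against 30.8 and 28.1 FPKM in the control (limma adjusted p = 0.21). Smad1 and Smad4, which carry the signal to the Id promoters, lay between 12.4 and 14.4 FPKM in every library.

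The genes with the most similar pattern were found by the Euclidean distance of log2(FPKM + 1) over the 4 libraries, centred for each gene, among genes averaging 5 FPKM or more. Closest to Id3 were Dlx1as, which overlaps Dlx1 and cannot be told apart from it without strand, Cthrc1, a secreted protein with a collagen triple helix repeat, and Tnn, a tenascin, at distances of 0.31, 0.34 and 0.36. Cthrc1 had 5.56 and 3.65 FPKM in mutants (upper and lower molar), against 15.0 and 10.2 FPKM in the matching controls. Closest to Id2 were the plakophilin gene Pkp4, Mpp1 and the scaffold gene Iqgap2, at distances of 0.03, 0.07 and 0.13. Closest to Id1 were Trim2, a ubiquitin ligase gene, Dkk3, of the Dickkopf family, and Penk, the precursor of enkephalins, at distances of 0.09, 0.15 and 0.22. Closest to Id4 were Tmem176a, Shisa2 and the integrin gene Itga8, at distances of 0.20, 0.21 and 0.21. With 1 FPKM added, the changes of Id4 (mean 1.62 FPKM) are understated more than those of these neighbours. Id1 and Id4 averaged less than 5 FPKM and could not be neighbours themselves. Id2 itself came at place 42 by closeness to Id3, at a distance of 0.82, and at place 38 by closeness to Id1, at a distance of 0.39. These distances rest on 4 values per gene and are given as a description.

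Id genes are also expressed in endothelium, pericytes, glia and cartilage, so markers of other cells near the captured tissue were compared. The 8 endothelial markers summed to 31.3 and 37.9 FPKM in mutants (upper and lower molar), against 43.1 and 41.3 FPKM in the matching controls. All 8 were lower in the mutant upper molar, as were 4919 of the 10502 tested genes. In the mutant lower molar 4 of 8 were lower, as were 6124 of the tested genes. No endothelial marker was at 0. The 5 pericyte markers summed to 31.6 and 28.7 FPKM in the mutant, against 49.8 and 45.6 FPKM in the control. Of these, 1 of 3 tested, Rgs5, was called lower (limma adjusted p = 0.011), against 0.457% of all tested genes. Rgs5 had 9.03 and 9.48 FPKM in the mutant and 31.8 and 25.05 FPKM in the control. The other 4 pericyte markers summed to 22.5 and 19.2 FPKM in the mutant, against 17.9 and 20.5 FPKM in the control. Most of this sum was Pdgfrb, with 20.2 and 16.1 FPKM in the mutant, against 14.1 and 15.6 FPKM in the control. Cspg4, Kcnj8 and Abcc9 went the other way, with less FPKM in each mutant library than in its matching control. Cspg4 had 1.84 and 2.45 FPKM in the mutant, against 2.45 and 2.55 FPKM in the control (limma adjusted p = 0.66). Kcnj8 had 0.062 and 0.196 FPKM, against 0.391 and 1.29 FPKM. Abcc9 had 0.467 and 0.484 FPKM, against 0.973 and 1.09 FPKM. Kcnj8 and Abcc9 did not pass the filter. The 5 cartilage and bone markers summed to 9.55 and 12.1 FPKM in the mutant, against 22.0 and 18.8 FPKM in the control. Sox9 was called lower (1 of 3 tested, against 0.457% of all tested genes). It had 3.43 and 1.60 FPKM in the mutant and 8.78 and 5.04 FPKM in the control. Sp7, an osteoblast factor, had 1.92 and 4.25 FPKM in the mutant, against 8.92 and 7.04 FPKM in the control (limma adjusted p = 0.12). Col2a1, the collagen of cartilage, had 4.17 and 6.23 FPKM in the mutant, against 4.20 and 5.96 FPKM in the control. With any 1 library left out, without a filter or with the molar term dropped, neither Rgs5 nor Sox9 was called. The 8 neural and glial markers summed to 8.68 and 7.07 FPKM in the mutant, against 3.41 and 4.59 FPKM in the control, and 7 of the 8 stayed below 1 FPKM. The eighth, the neurofilament gene Nefl, had 6.89 and 4.15 FPKM in the mutant, against 0.632 and 1.52 FPKM in the control (limma adjusted p = 0.057). The 7 others summed to 1.80 and 2.92 FPKM in the mutant, against 2.78 and 3.08 FPKM in the control. No marker of these lists was at 0 in all 4 libraries. The 9 epithelial markers summed to between 20.4 and 23.0 FPKM, the 6 muscle markers to between 2.37 and 3.06 FPKM and the 5 macrophage markers to between 3.48 and 4.80 FPKM. The part of these cell types in the lower Id levels of the mutant was not tested.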

How the data were processed

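RNA of laser-captured molar mesenchyme was extracted with an RNeasy Micro kit, amplified with NuGEN Ovation RNA-Seq v2 and made into Nextera libraries, per the labels' protocols. TopHat 1.4.1, Bowtie 0.12.7 and build mm9 are named in the submitters' processing notes. The authors' tables are laid out as Cufflinks writes them and give FPKM and coverage for 28107 RefSeq transcripts, per the file headers. Cufflinks' version, whether strand was used and how reads with several alignments were shared are not given in the sources used here. In each library 294 transcripts had too little data and between 19 and 55 a failed estimate, none of them of an Id gene.

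FPKM was summed per gene symbol. Within each library the deposited coverage and FPKM have a fixed ratio, and coverage times length, divided by 44.2 bases per read, gave approximate reads. Whole reads were not recovered, so no count test was run. Intervals are exact (Poisson for levels, Clopper-Pearson for ratios) at 95% and hold counting error alone. After amplification, reads are not independent molecules. Deposited starts count from 0, as 3284 transcripts whose span equals their length show, and are printed counted from 1.

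limma 3.58.1 in R 4.3.3 was fitted to log2(FPKM + 1) of the 10502 genes averaging 1 FPKM or more. The model had additive terms for genotype and molar and an intensity trend. Tests were two-sided, with Benjamini-Hochberg adjustment over all of these genes. The fit was also run on simulated data with independent noise in each library. That run cannot show how it behaves with shared embryos or with genotype effects that differ between molars. The fit has 1 residual and 5.77 prior degrees of freedom. Its p-values rest on the disagreement between molars, not on the spread between embryos or pools. Within a molar there is 1 library per genotype and no test. Alternatives covered the pseudocount, filter, scaling, short transcripts, trend, the term for the other factor and each library left out.

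The members and gene lists were chosen with earlier results of these data known. Named genes are the Id genes, Bmp4, all members averaging 1 FPKM or more of 3 short lists (E proteins, mesenchymal bHLH factors, Id regulators), the 4 with the largest genotype difference of each of 2 BMP lists, and the 3 genes closest in pattern to each Id gene, without provisional and small RNA symbols. Other names were added after their values were seen.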

Additional observations from a re-analysis of the deposited data

Results flagged for a closer look

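Of the 32 genes named by rule besides the Id genes, 6 had a genotype difference of opposite sign in the 2 molars. With 1 library per genotype in each molar, the difference between molars was not tested. Among all 10502 tested genes, the genotype difference was negative in each molar for 32.4% and positive in each molar for 27.2%. Opposite signs were thus common among tested genes. Part of the 32 were chosen by the size of their genotype difference or by closeness in pattern to an Id gene. The number with opposite signs among them therefore cannot be set against all tested genes. Scx was 0.67 higher in the mutant upper molar and 0.62 lower in the mutant lower molar (log2), on between 12 and 67 approximate reads. The difference of Usp1 was 0.14 in upper and -0.36 in lower molars, that of Fzr1 0.093 and -0.26, that of Tcf3 0.077 and -0.13, that of Tcf12 0.068 and -0.10, and that of Rb1 0.031 and -0.12 (mutant minus control, log2). All 4 Id genes had a negative genotype difference in each molar, as had 32.4% of all tested genes. Their molar difference was negative in each genotype, as it was for 35.0% of all tested genes.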

How the results depend on the processing

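No paired analysis was possible because each combination of genotype and molar has 1 library and the labels give no replicate numbers. The number of genes limma called for genotype was 84, and it was 0 without a filter on low values (1398 at an unadjusted p under 0.05), 146 with 5 FPKM as the filter, 15 after rescaling by median ratios, 133 without transcripts under 0.3 kb, 38 without an intensity trend and 7 without a term for the molar. For the molar it was 76, and it was 0 without a filter (1225 at an unadjusted p under 0.05), 127 with 5 FPKM as the filter, 139 without transcripts under 0.3 kb and 12 without a term for genotype. With 1 library left out and hence no other term in the fit, limma made between 5 and 22 calls for genotype and between 2 and 30 for the molar. The number of genes past 2-fold in the upper molar was 106, and it was 223 at a pseudocount of 0.1, 35 with 5 FPKM as the filter and 63 without transcripts under 0.3 kb. In the lower molar it was 115, against 249, 45 and 70 in these settings and 175 without a filter.

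The genotype difference of Id3 stayed at -1.19 without a filter, without an intensity trend and without a term for the molar and was -1.17 after rescaling, past the threshold in none of these. That of Id2 was -0.55 and past the threshold only with 5 FPKM as the filter, where Id1 and Id4 are not tested. The molar difference of Id3 was -0.69 and past the threshold only with 5 FPKM as the filter. That of Id4 was -0.84 and past it only without transcripts under 0.3 kb and without an intensity trend. With 1 library left out the genotype difference lay between -1.66 and -0.71 for Id3, -1.05 and -0.28 for Id1, -0.68 and -0.42 for Id2 and -0.80 and 0.076 for Id4, reversed without the mutant lower or the control upper library. The molar difference lay between -0.92 and 0.11 for Id1, -0.52 and 0.064 for Id2, -1.41 and 0.036 for Id3 and -1.04 and -0.64 for Id4. The reversals for Id1, Id2 and Id3 came without the mutant lower library, and for Id2 also without the control upper library. Without the term for the other factor, an unbalanced set of 3 libraries mixes genotype and molar.

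Of the other genes, Tcf12 was at 0.0043 after rescaling and Scx at -0.11 with a pseudocount of 0.1. With 1 library left out, the ranges that include both signs were -0.11 to 0.052 for Tcf3, -0.12 to 0.088 for Tcf12, -0.12 to 0.66 for Twist1, -0.74 to 0.79 for Scx, -0.24 to 0.028 for Usp1, -0.28 to 0.12 for Fzr1, -0.12 to 0.032 for Rb1, -0.83 to 0.18 for Shisa2 and -0.58 to 0.20 for Itga8. Causes were not tested. Depth limits Id1 and Id4 most, with as few as 26 and 16 approximate reads.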
